A study of Mus musculus with 8 samples.

Results

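The proximal T cell receptor signalling genes are Lck, Fyn, Zap70, Lat, Lcp2, Ptprc, Cd5, Cd6 and Cd28. At these 9 loci, 139 of the 63098 Bcl11b ChIP intervals of the normalized table were found. An interval of 201 bp belonged to a gene if that gene's body was the nearest protein-coding body to the interval's midpoint and lay within 100 kb (mm10 coordinates, RefSeq gene bodies; the distance is 0 inside a body). Bcl11b, a DNA-binding zinc finger protein, is required for thymocytes to become T cells and to stay so. ChIP-seq, the sequencing of DNA precipitated with a protein, used a rabbit antibody to Bcl11b on fresh mouse thymocytes. There were 3 libraries from Bcl11b+/N440K thymocytes, which carry a wild type allele and an allele whose protein has lysine in place of asparagine, and 3 from Bcl11b+/+ (wild type) thymocytes. Whether the antibody binds both proteins equally, the age of the mice and whether the replicates came from separate animals are not given in the sources used here. All p-values here thus reflect the spread between libraries alone, and that spread may be technical. No background level stands beside the signal, since the 2 inputs (wild type) were not used here. In thymocytes taken as a whole, fewer cells with a bound site and less binding per cell cannot be told apart.

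When the T cell receptor binds its ligand, the Src family kinases Lck and Fyn phosphorylate the CD3 chains, and the kinase Zap70 docks on the phosphorylated tails. Zap70 then phosphorylates the membrane adaptor Lat and the cytosolic adaptor Lcp2 (SLP-76), on which the downstream enzymes assemble. The phosphatase Ptprc (CD45) removes the inhibitory phosphate of Lck. Cd5 and Cd6 are scavenger receptor family proteins that tune the signal, and Cd28 delivers co-stimulation. In developing thymocytes the strength of this signal decides between death and survival of a cell.

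Bcl11b signal covered the start sites of several of these genes, and the sequences below are the 250 bases before the start site where a strong interval lay at or beside it. Sequences and start sites are RefSeq's on GRCm38.p6, whose positions equal those of mm10, and each reads 5′ to 3′ on the gene's strand. Capitals mark the bases TGTGGT (core of Runx sites) or CACCTG (an E protein site), on either strand. Fyn and Ptprc also had an interval over a start site, weaker than those at the windows shown. Their windows are left out here and held neither TGTGGT nor CACCTG. Lck is shown with both of its start sites, because each lay at an interval of its own: the proximal promoter is known for its use in immature thymocytes and the distal one for its use in mature T cells.
Lck proximal (chr4:129558373-129558622, minus strand): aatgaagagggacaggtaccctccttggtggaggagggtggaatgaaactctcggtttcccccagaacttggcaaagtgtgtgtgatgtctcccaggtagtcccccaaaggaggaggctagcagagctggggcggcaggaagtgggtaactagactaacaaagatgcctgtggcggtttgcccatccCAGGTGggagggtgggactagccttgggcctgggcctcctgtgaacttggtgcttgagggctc
Lck distal (chr4:129573642-129573891, minus strand): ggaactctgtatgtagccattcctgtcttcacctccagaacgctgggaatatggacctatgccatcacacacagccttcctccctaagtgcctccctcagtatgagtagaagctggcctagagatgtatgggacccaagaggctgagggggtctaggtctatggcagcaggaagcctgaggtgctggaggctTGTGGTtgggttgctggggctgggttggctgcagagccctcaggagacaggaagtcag
Zap70 (chr1:36761548-36761797, plus strand): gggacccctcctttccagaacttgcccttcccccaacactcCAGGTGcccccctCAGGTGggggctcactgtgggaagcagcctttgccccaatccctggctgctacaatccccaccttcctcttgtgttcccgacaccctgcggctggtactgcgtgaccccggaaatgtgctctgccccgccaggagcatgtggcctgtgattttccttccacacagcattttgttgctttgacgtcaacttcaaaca
Lat (chr7:126369569-126369818, minus strand): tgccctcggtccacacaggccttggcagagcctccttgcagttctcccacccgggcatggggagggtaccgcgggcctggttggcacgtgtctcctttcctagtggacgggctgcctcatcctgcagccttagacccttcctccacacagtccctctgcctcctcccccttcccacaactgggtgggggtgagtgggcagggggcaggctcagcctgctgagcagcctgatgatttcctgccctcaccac
Cd5 (chr19:10738975-10739224, minus strand): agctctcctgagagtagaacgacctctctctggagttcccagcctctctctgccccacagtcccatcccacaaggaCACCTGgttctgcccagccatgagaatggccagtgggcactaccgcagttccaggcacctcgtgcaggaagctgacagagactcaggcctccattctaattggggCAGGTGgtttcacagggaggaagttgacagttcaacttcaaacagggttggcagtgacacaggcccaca

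The promoter table held 11 start sites of 7 of the 9 genes. A tested interval overlapped the 250 bases before 8 of these start sites, in 6 genes. The windows of Ptprc overlap each other and share an interval. How many of all windows are overlapped by an interval is not given here, so the count has no background. TGTGGT, searched on both strands, was found in 2 of the 11 windows and in 14% of all 32851 windows of that length. CACCTG was found in 4 of the 11 windows and in 17.2% of all. ACCGGAAG (an Ets site), TGACCA (a Bcl11a site) and GGCCGG (reported for Bcl11b) were found in 0 of the 11 windows, and in 1.72%, 11.4% and 15.8% of all windows. None of the motifs overlapped another in the windows shown. The TGTGGT match began 58 bases before the distal start of Lck, inside the interval there. The CACCTG match before the proximal start of Lck, at 63 bases, and both matches before Cd5, at 174 and 69 bases, also lay inside an interval. Those before the first start of Zap70, at 209 and 196 bases, lay outside it.

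The table's depth and its other loci set the scale for these genes. Counts in the tested intervals totalled 1656164 to 1925619 in the N440K libraries and 1609762 to 2400250 in the wild type libraries. The 139 intervals of the 9 genes held 0.252%, 0.244% and 0.263% of them in the N440K libraries and 0.256%, 0.247% and 0.270% in the wild type libraries, so the groups overlapped. Their median signal was 12.2 CPM (reads scaled to library size) over the 6 libraries, against 11.8 CPM for all tested intervals. Inside gene bodies lay 70 of the 139 intervals (50.4%), against 61.6% of all tested intervals. The 9 genes had between 7 intervals (Lck) and 28 (Fyn), where the median over 13440 genes with an interval was 3. Among the strongest 25% of the table were 38 of them (27.3%). Near marker genes of T cells lay 38 tested intervals, at 6 of 6 genes, with a median of 20.8 CPM. Marker genes of B cells had 5 intervals at 3 of 5 genes, those of myeloid cells 13 at 1 of 5, of erythroid cells 5 at 2 of 5, of natural killer cells 23 at 2 of 5 and of thymic epithelium 11 at 2 of 5. These are counts of bound intervals and not of expression.

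**Figure D1:**
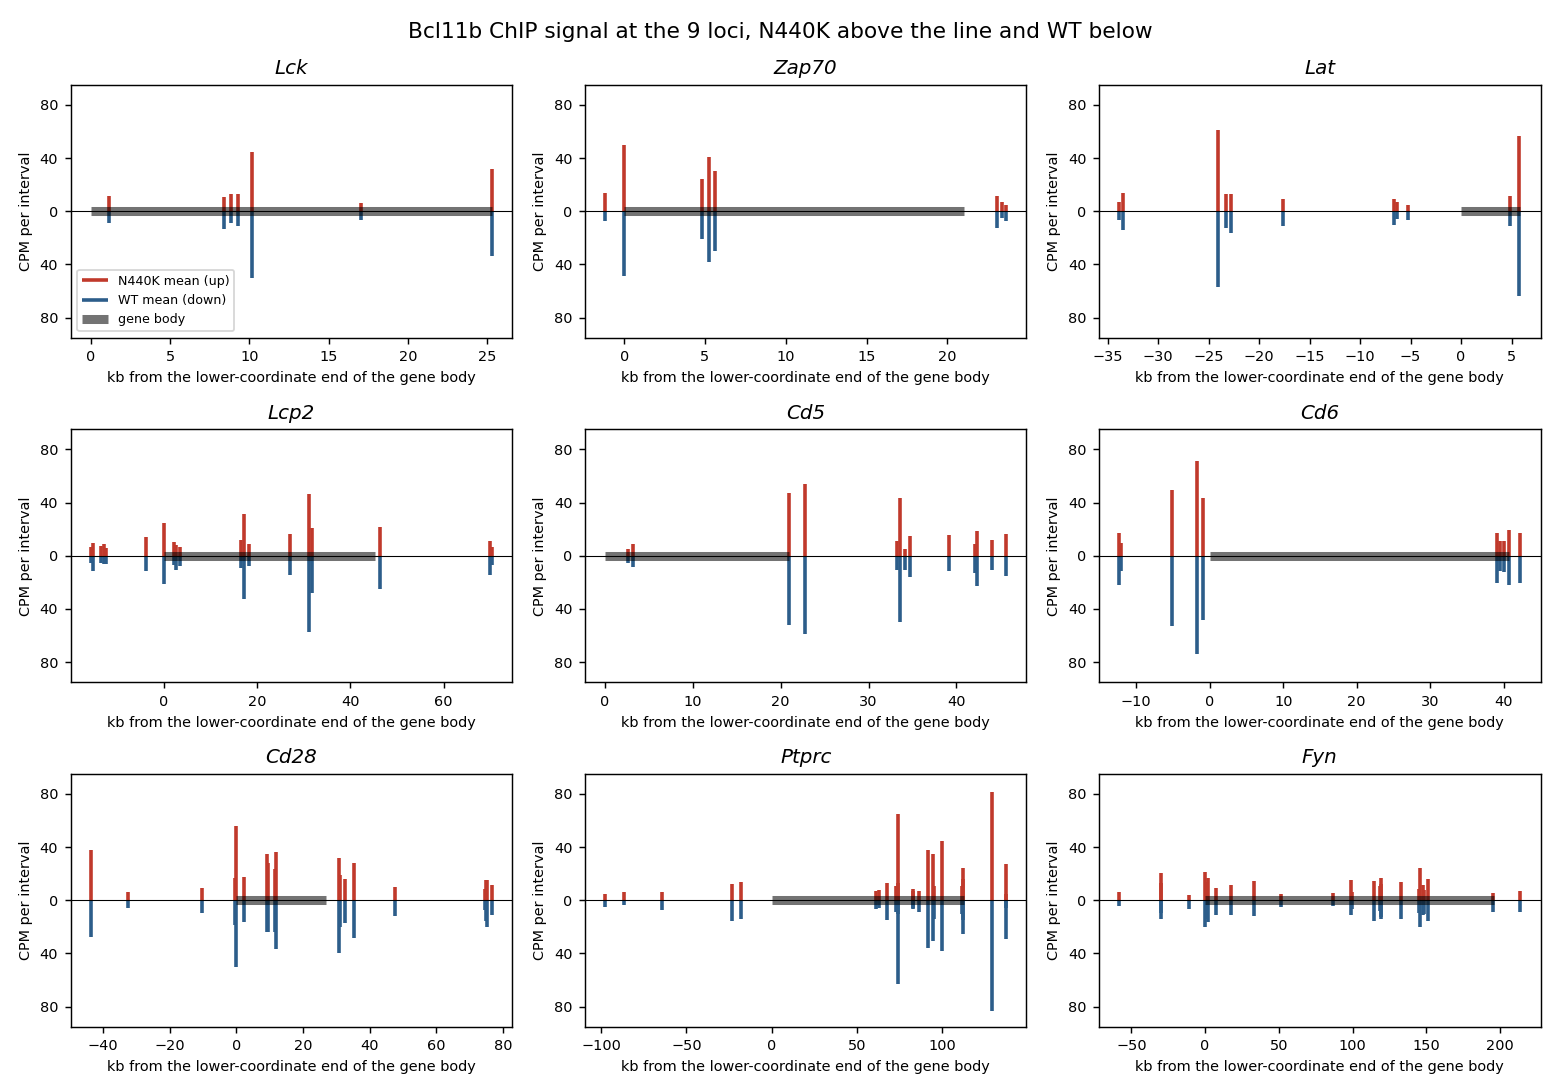
Bcl11b ChIP signal at the 9 loci. The x axis is the distance in kb from the lower-coordinate end of the gene body (grey bar), and each line is an interval, with the mean CPM of the 3 N440K libraries above 0 and of the 3 wild type libraries below 0. The tallest lines are at Ptprc (82.2 CPM over the 6 libraries) and Cd6 (72.6 CPM), while Fyn has many low lines with none above 22.2 CPM over the 6 libraries.

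Bcl11b binding at the 9 genes did not change past the threshold in N440K thymocytes. Of the 139 intervals, 0 were called (quasi-likelihood test of edgeR, p adjusted over the whole table by the Benjamini-Hochberg method, threshold 0.05), where 1.14% of all tested intervals were called, 0.46% higher and 0.681% lower in N440K. This balance of 290 higher and 430 lower calls was 172 and 146 with limma voom and 429 and 453 with no filter on low counts. DESeq2 and limma voom also called 0 of them, against 0.0951% and 0.504% of the table. An unadjusted edgeR p under 0.05 was reached by 8 intervals (5.76%), 5 higher and 3 lower in N440K, against 12.7% of the table. At a background of 1.14%, few calls would fall among 139 intervals, and the count of 0 is no result particular to these genes. The median log2 fold change was -0.02 over the 139 intervals, with 66 positive and 73 negative values, and 0.00 over the table. N440K and wild type libraries were fully separate at 25 of the 139 (18%), 11 higher and 14 lower in N440K, against 17.3% of the table, 8.34% higher and 8.95% lower. The scaling centres the table's ratios near 0, and a change shared by all sites would not be seen.

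Summing the counts of all tested intervals of a gene gave narrower limits. None of the 9 sums was called by edgeR, which called 3.34% of 13440 genes. At that share few calls would fall among 9 sums, and their absence is no result particular to these genes. DESeq2 and limma voom also called none of the 9, and their shares over all genes are not given here. At an unadjusted edgeR p under 0.05 there was 1 of the 9 (Cd6), against 15.7% of all genes. The log2 fold changes of the sums lay between -0.17 (Cd6) and 0.09 (Zap70), 4 of them positive and 5 negative. Their 95% intervals, which are not adjusted for the number of genes, together spanned -0.33 to 0.27, that is 79.7% to 121% of the wild type level. For single intervals the limits were wider. The 95% interval stayed within a 2-fold change either way at 114 of the 139, reached past a 2-fold loss at 10 and past a 2-fold gain at 15.

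**Figure D2:**
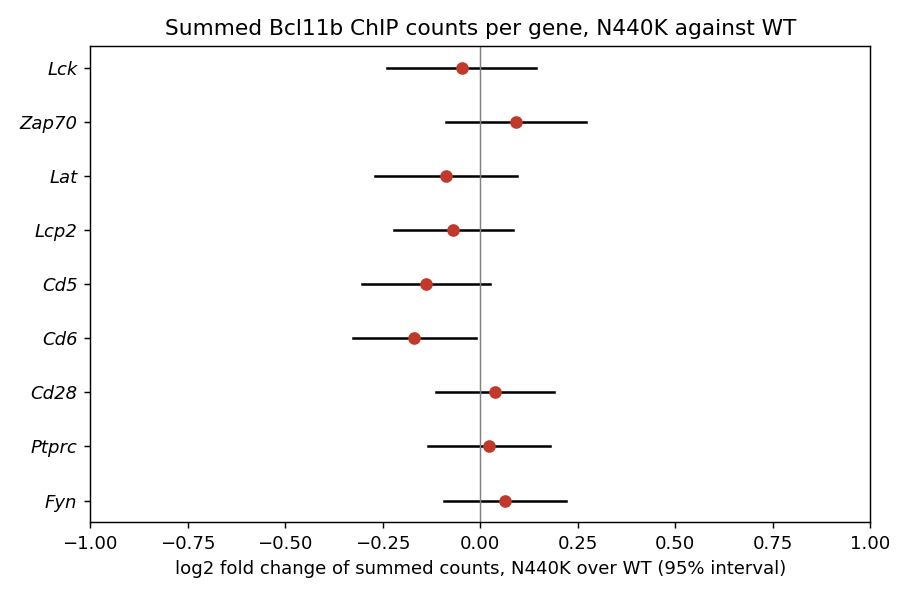
Log2 fold change of the summed Bcl11b ChIP counts of each gene, N440K over wild type (points), with its 95% interval (lines) on the x axis and the genes on the y axis. The points lie between -0.17 and 0.09, and the interval of Cd6, from -0.33 to -0.01, is the only one of the 9 that leaves out 0 before adjustment.

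The kinase Lck, which starts the phosphorylation cascade, had 7 tested intervals in or at its gene body (chromosome 4, 129548344 to 129573641). The strongest, at 129558418 to 129558618, was centred 146 bases before the proximal start site shown above. It had 47.1, 47.0 and 40.1 CPM in the N440K libraries and 47.1, 51.5 and 51.5 CPM in the wild type libraries. The N440K libraries lay lower, the nearest by a very small margin, and the log2 fold change of -0.17 ± 0.14 (SE) did not pass (edgeR adjusted p = 0.674). At the distal start site the interval from 129573570 to 129573770 had 32.7, 30.5 and 32.3 CPM in N440K and 31.6, 31.3 and 38.2 CPM in wild type thymocytes. The groups overlapped there, with a log2 fold change of -0.09 ± 0.17 (edgeR adjusted p = 0.887). The proximal interval thus carried more signal than the distal one in both genotypes, with means of 44.7 ± 4.01 and 31.8 ± 1.15 CPM in N440K and of 50.02 ± 2.54 and 33.7 ± 3.90 CPM in wild type libraries (SD, n = 3). The interval of Lck with the smallest p, 1196 bases after the proximal start (129557076 to 129557276), had 12.7 ± 3.32 CPM in N440K and 8.69 ± 1.21 CPM in wild type libraries (edgeR adjusted p = 0.430). Summed over its intervals Lck had 130 ± 2.72 CPM in N440K and 132 ± 7.48 CPM in wild type libraries (SD, n = 3; log2 fold change -0.05 ± 0.09, edgeR adjusted p = 0.867).

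The related kinase Fyn (chromosome 10, 39369743 to 39565381), whose body of 195.6 kb is the longest of the 9, showed the opposite layout. Its 28 tested intervals were spread over the gene and its flanks, and the strongest held 6.96% of the gene's summed signal, against 36.2% for Lck. That interval, at 39514999 to 39515199 inside the body, had 23.8, 24.4 and 23.9 CPM in N440K and 18.0, 18.5 and 24.5 CPM in wild type libraries. Wild type replicate 3 stood at the N440K level, so the groups overlapped (log2 fold change 0.23 ± 0.20, edgeR adjusted p = 0.700). At the start site the interval from 39369625 to 39369825 had 21.3 ± 5.35 CPM in N440K and 20.4 ± 3.69 CPM in wild type libraries (SD, n = 3; edgeR adjusted p = 0.979). The smallest p of the gene belonged to an interval 30.1 kb before the start site (39339625 to 39339825), with 21.0, 16.5 and 23.4 CPM in N440K and 14.9, 15.2 and 12.5 CPM in wild type libraries. Each N440K library lay above each wild type library there, and the log2 fold change of 0.53 ± 0.23 did not pass (edgeR adjusted p = 0.291). Fyn summed to 328 ± 17.8 CPM in N440K and 310 ± 15.8 CPM in wild type libraries (log2 fold change 0.06 ± 0.08, edgeR adjusted p = 0.763).

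Zap70, the kinase that docks on the receptor's phosphorylated chains, spans 36761798 to 36782821 on chromosome 1 and had 8 tested intervals. Its strongest, at 36761688 to 36761888, held the first start site. It had 50.4, 49.4 and 49.97 CPM in N440K and 49.6, 46.5 and 49.4 CPM in wild type libraries, overlapping groups with a log2 fold change of 0.05 ± 0.14 (edgeR adjusted p = 0.935). A weak interval 1183 bases before that start site (36760515 to 36760715) had 13.8, 15.2 and 11.97 CPM in N440K and 6.20, 6.17 and 9.01 CPM in wild type libraries. All N440K libraries were higher, and the log2 fold change of 0.91 ± 0.29, the largest positive value of the 139, did not pass (edgeR adjusted p = 0.114). The weak and the strong interval lie close together, and the strong one moved by 0.05. The difference between the pair was not tested. Zap70 summed to 182 ± 3.92 CPM in N440K and 169 ± 12.6 CPM in wild type libraries (log2 fold change 0.09 ± 0.09, edgeR adjusted p = 0.684).

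**Figure D3:**
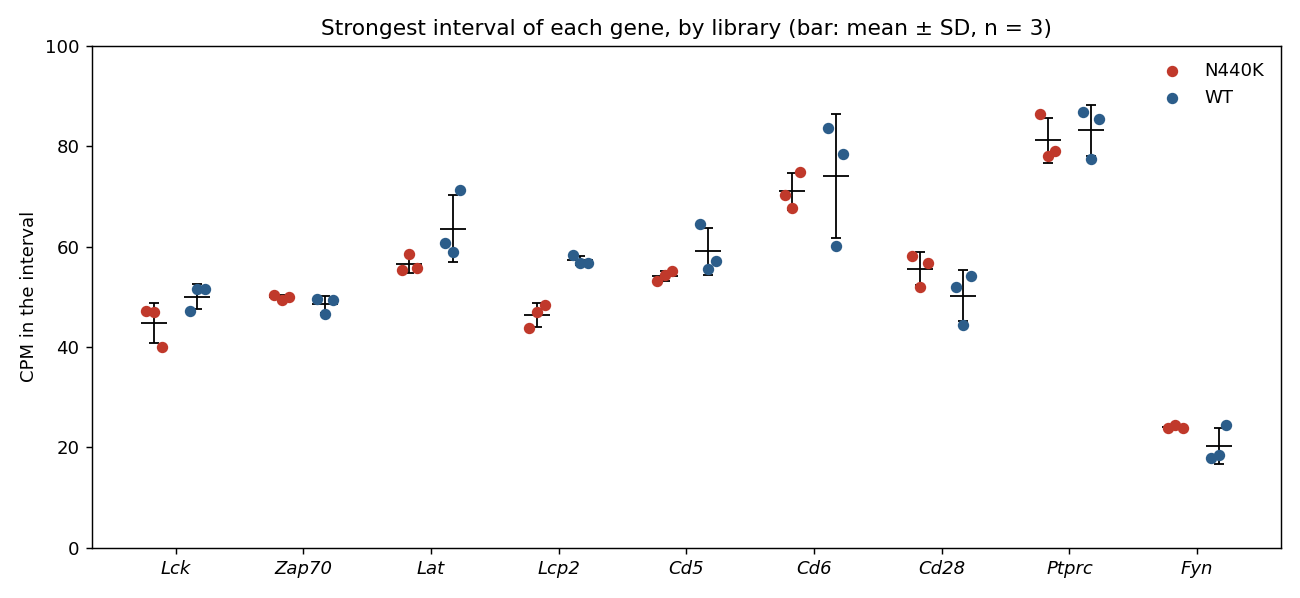
CPM in the strongest interval of each gene in every library (points), with N440K left of wild type, and the mean ± SD of 3 libraries (black). The N440K and wild type points overlap at Zap70, Cd6, Cd28, Ptprc and Fyn. The N440K points lie lower at Lck, Lat, Lcp2 and Cd5, at Lck by a very small margin, with an edgeR adjusted p of 0.323 or more at each. Over the whole table the libraries were fully separate at 17.3% of intervals, with N440K lower at 8.95%. The direction shared by these genes was not tested.

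The membrane adaptor Lat has the shortest body of the 9 (5.9 kb, chromosome 7, 126363827 to 126369705) and a pair of strong intervals. That at the start site (126369487 to 126369687) had 55.4, 58.6 and 55.7 CPM in N440K and 60.7, 58.9 and 71.2 CPM in wild type libraries. The N440K libraries lay lower by a small margin, since wild type replicate 2 nearly met the highest of them (log2 fold change -0.17 ± 0.13, edgeR adjusted p = 0.623). The other lay 24.1 kb from the body, at 126339667 to 126339867, and had 61.4 ± 5.40 CPM in N440K and 57.1 ± 2.99 CPM in wild type libraries (SD, n = 3; log2 fold change 0.11 ± 0.13, edgeR adjusted p = 0.799); the naming rule did not pick it, and it is given because of its values. The smallest p of the gene was at 126340939 to 126341139, with 13.2 ± 3.37 CPM in N440K and 16.4 ± 5.36 CPM in wild type libraries (edgeR adjusted p = 0.582). Lat summed to 205, 204 and 212 CPM in N440K and 196, 206 and 246 CPM in wild type libraries, where wild type replicate 3 stood alone at the top. The log2 fold change of the sum was -0.09 ± 0.09 (edgeR adjusted p = 0.708), and 0.04 without that library.

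Lcp2, the adaptor SLP-76, spans 34046928 to 34092281 on chromosome 11 and had 19 tested intervals. Its signal was strongest deep inside the gene and not at the start site. The interval 31.1 kb after the start site (34077958 to 34078158) had 43.7, 47.0 and 48.4 CPM in N440K and 58.2, 56.8 and 56.7 CPM in wild type libraries. Its neighbour at 34078625 to 34078825 had 21.0, 20.1 and 20.8 CPM in N440K and 26.6, 27.99 and 28.8 CPM in wild type libraries. At both, every N440K library was lower than every wild type library. The log2 fold changes of -0.30 ± 0.14 and -0.43 ± 0.19 did not pass (edgeR adjusted p = 0.323 and 0.318). Near the start site the interval from 34046948 to 34047148 had 24.7 ± 4.71 CPM in N440K and 21.5 ± 2.74 CPM in wild type libraries (SD, n = 3; edgeR adjusted p = 0.762). Over the gene, 10 intervals had a positive and 9 a negative log2 fold change, and the sum was 278 ± 4.88 CPM in N440K and 288 ± 6.56 CPM in wild type libraries (log2 fold change -0.07 ± 0.07, edgeR adjusted p = 0.729).

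Ptprc, the gene of the phosphatase CD45, held the strongest interval of the 9 loci. It lay outside the body (chromosome 1, 138062859 to 138175756), 16.5 kb before the nearest start site, at 138191689 to 138191889, and ranked 178 of 63098 by mean signal. Its values were 86.4, 78.1 and 79.1 CPM in N440K and 86.7, 77.4 and 85.4 CPM in wild type libraries. The groups overlapped almost entirely, with a log2 fold change of -0.03 ± 0.11 (edgeR adjusted p = 0.950) and a 95% interval of -0.26 to 0.20. At the start site the interval from 138175160 to 138175360 had 24.2 ± 5.12 CPM in N440K and 25.1 ± 3.55 CPM in wild type libraries (SD, n = 3; edgeR adjusted p = 0.950). The smallest p was at a very weak interval 86.4 kb from the body (137976312 to 137976512), with 6.64, 5.49 and 5.73 CPM in N440K and 2.48, 2.88 and 4.72 CPM in wild type libraries (edgeR adjusted p = 0.477). That interval was also one of the farthest members under the 100 kb rule. The farthest, at 97.7 kb, had 4.81 ± 1.22 CPM in N440K and 5.38 ± 2.01 CPM in wild type libraries, and the nearest interval left out by the rule, at 116.0 kb, had 6.69 ± 0.553 and 4.33 ± 1.08 CPM (SD, n = 3) in N440K and wild type libraries. Ptprc summed to 500, 420 and 498 CPM in N440K and 459, 436 and 486 CPM in wild type libraries. N440K replicate 2 was the lowest of the 6, and the log2 fold change of the sum was 0.02 ± 0.08 (edgeR adjusted p = 0.930).

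Cd5 and Cd6 are neighbours on chromosome 19, at 10718107 to 10739026 and 10789339 to 10830062, so that intervals between them were given to the nearer body. Cd5, whose product dampens receptor signalling, had 13 tested intervals, of which 2 lay inside its body. The strongest, 1855 bases before the start site (10740729 to 10740929), had 53.2, 54.3 and 55.2 CPM in N440K and 64.4, 55.6 and 57.1 CPM in wild type libraries, with N440K lower by a small margin (log2 fold change -0.11 ± 0.13, edgeR adjusted p = 0.790). The interval over the start site (10738958 to 10739158) had 46.8 ± 6.19 CPM in N440K and 51.7 ± 1.69 CPM in wild type libraries (SD, n = 3; edgeR adjusted p = 0.749). The lowest log2 fold change of all 139 intervals was at 10752140 to 10752340, 13.2 kb from the body. This weak interval had 5.54, 3.66 and 6.25 CPM in N440K and 9.91, 10.3 and 12.02 CPM in wild type libraries, which is 47.9% of the wild type mean. Every N440K library was lower, and the log2 fold change of -1.04 ± 0.34 did not pass (edgeR adjusted p = 0.117). Cd5 summed to 261 ± 18.2 CPM in N440K and 284 ± 13.8 CPM in wild type libraries (log2 fold change -0.14 ± 0.08, edgeR adjusted p = 0.431).

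At Cd6, a relative of Cd5 that binds CD166, all 10 tested intervals had a negative log2 fold change, from -0.38 to -0.04. Intervals of 1 gene share the same 6 libraries and are not replicates, and their common sign was not tested. The strongest, 1.8 kb from the lower end of the body (10787459 to 10787659), had 70.3, 67.7 and 74.95 CPM in N440K and 83.6, 60.1 and 78.6 CPM in wild type libraries, so the groups overlapped (log2 fold change -0.04 ± 0.12, edgeR adjusted p = 0.928). The smallest p was at 10776922 to 10777122, with 15.5, 18.3 and 16.7 CPM in N440K and 24.2, 18.9 and 23.2 CPM in wild type libraries, where N440K was lower throughout (edgeR adjusted p = 0.470). Summed, Cd6 had 261.9, 276.4 and 257.7 CPM in N440K and 304.8, 276.2 and 303.9 CPM in wild type libraries. The groups overlapped only through wild type replicate 2, which lay just below N440K replicate 2. The log2 fold change of -0.17 ± 0.08 was the lowest of the 9 sums, and it did not pass (edgeR adjusted p = 0.270, and 0.127 to 0.644 over 17 alternatives). Of 6719 genes with a summed signal at or above the median, those with library values most like Cd6 were Rag2, Hexim2 and Tmem255b, with Pearson correlations of log2 CPM of 0.997, 0.992 and 0.984 over the 6 libraries. In 83 of the 6719 genes the correlation was above 0.9, and the ranking was not tested. The log2 fold changes of the sums were -0.38 for Rag2, -0.05 for Hexim2 and -0.43 for Tmem255b, against -0.17 for Cd6.

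Cd28, the co-stimulatory receptor, spans 60746388 to 60773359 on chromosome 1 and had 19 tested intervals, up to 49.7 kb from its body. The strongest lay at the lower end of the body (60746237 to 60746437) and had 58.1, 51.9 and 56.7 CPM in N440K and 52.0, 44.5 and 54.1 CPM in wild type libraries, with overlap (log2 fold change 0.15 ± 0.14, edgeR adjusted p = 0.699). The smallest adjusted p of all 139 intervals was inside the gene at 60755474 to 60755674. This interval had 36.5, 30.5 and 38.0 CPM in N440K and 27.9, 21.0 and 23.6 CPM in wild type libraries. All N440K libraries were higher, and the log2 fold change of 0.56 ± 0.18 did not pass (edgeR adjusted p = 0.112, and 0.0848 to 0.815 over 16 alternatives). Another interval, 43.6 kb from the body (60702736 to 60702936), had 37.6, 31.1 and 44.2 CPM in N440K and 29.7, 25.9 and 27.0 CPM in wild type libraries; the naming rule did not pick it either. Its N440K libraries were all higher, and the log2 fold change of 0.47 ± 0.17 did not pass (edgeR adjusted p = 0.189). The sum of 421 ± 26.0 CPM in N440K and 406 ± 22.1 CPM in wild type libraries gave a log2 fold change of 0.04 ± 0.07 (edgeR adjusted p = 0.864), with 9 positive and 10 negative values among the 19 intervals.

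**Figure D4:**
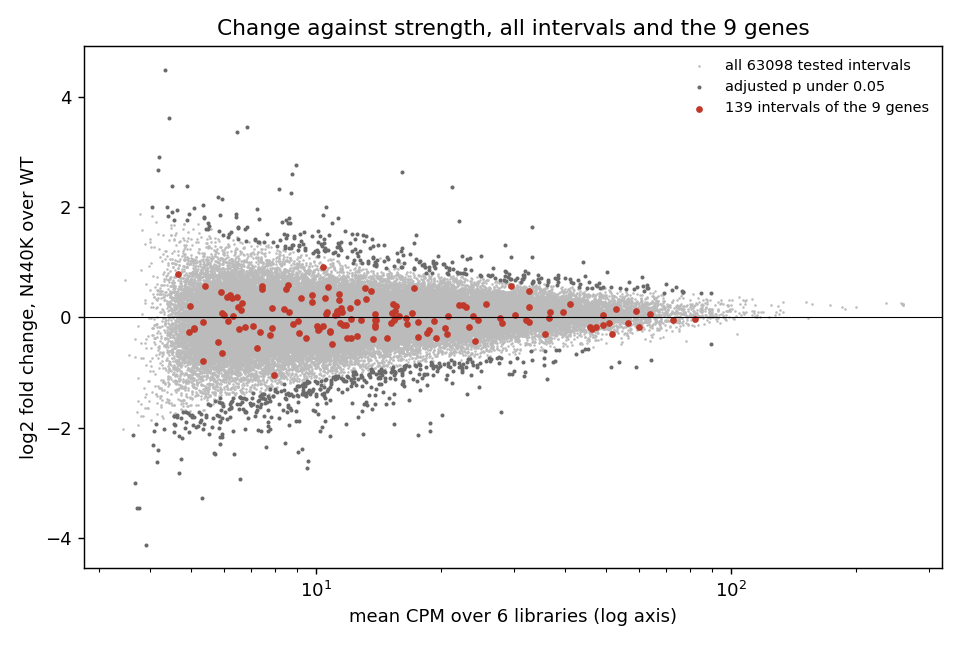
Log2 fold change, N440K over wild type (y axis), against mean CPM over the 6 libraries (x axis, log scale) for all 63098 tested intervals (light grey), those with an adjusted p under 0.05 (dark grey) and the 139 intervals of the 9 genes (red). The red points run from -1.04 to 0.91 and lie within the light grey cloud, with none among the called intervals.

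Intervals near a listed start site were set beside the rest. The promoter table has no entry for Cd28 and Cd6, so their intervals could not be placed against a start site and count among the rest. The 13 intervals within 1 kb of a start site of that table had a median of 23.1 CPM and log2 fold changes from -0.17 to 0.19. The other 126 had a median of 11.8 CPM and log2 fold changes from -1.04 to 0.91. Strength was not held fixed in this description. Inside gene bodies the median log2 fold change was 0.05 over 70 intervals, and outside it was -0.09 over 69. The genes contributed unequally to this split, with 22 of 28 intervals inside at Fyn, 4 of 10 at Cd6 and 2 of 13 at Cd5. Position was therefore not separated from gene, and the split was not tested.

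Other genes of the same pathway were followed in a list of 46, from the CD3 chains and coreceptors to the kinase Prkcq, the lipase Plcg1 and the exchange factor Vav1. The list was chosen by textbook role. Over its 559 tested intervals the median log2 fold change was -0.01, and edgeR, DESeq2 and limma voom called 0 of them. With edgeR 67 intervals (12%) had an unadjusted p under 0.05, 34 higher and 33 lower in N440K. Over the whole table these shares were 1.14% called and 12.7% at an unadjusted p under 0.05. The unadjusted share of the list thus lay near that of the table. Its 0 calls stood below the 1.14%, and this difference was not tested.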

How the data were processed

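For the 6 ChIP libraries, raw read counts in 93708 intervals were deposited by the authors. They also deposited CPM values for 63098 of these intervals, which are the counts divided by 1 constant per library; 100% of the values came back as whole reads (tolerance 0.01). Per the submitters' processing notes, the build was mm10 and the tools included MACS2, edgeR 3.38.2, Bowtie2 2.3.5, bedtools, fastp 0.20.0 and SAMtools 1.9, with no role or order. The sources used here do not say whether peaks were called on pooled libraries. The counts passed through filterByExpr (by group), leaving the same 63098 intervals, and were scaled with TMM and fitted with the quasi-likelihood method of edgeR (genotype as the only term, two-sided, Benjamini-Hochberg adjusted p under 0.05 over the whole table). The standard error of a log2 fold change is its size over the root of the F statistic. Sums of counts per gene were fitted in the same way over 13440 genes. Gene bodies came from RefSeq (GRCm38.p6); no midpoint of the 9 genes' intervals lay in more than 1 gene body. Starts are counted from 1.

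Fixed parameters were a loess span of 0.3, a near distance of 10 kb and a stricter threshold of 0.01. For each gene the text names the strongest interval, that with the smallest p, that nearest to a start site within 1 kb and any called interval; in the list of other pathway genes the rule takes any called interval or else the one with the smallest p, which is not reported here. Members and lists were chosen with earlier results of these data known. The fits were tested on simulated data with known changes, 50 at each fold. For intervals edgeR recovered 6 of 50 at 1.5-fold, 17 at 2-fold and 41 at 3-fold, with 0 false calls. DESeq2 recovered 10 of 50 intervals at 2-fold. For gene sums edgeR recovered 30 of 50 at 1.5-fold and 39 at 2-fold, with 12 false calls among 178. Alternatives were DESeq2, limma voom, other scalings, filters and thresholds, a replicate block, leaving out each library, nearer intervals, and the counts recovered from the CPM table. The chi-square per degree of freedom between libraries was 1.24 to 1.42 within and 1.55 to 1.78 between genotypes, and no pair of libraries matched within sampling noise. Software was Python 3.11.15 and R 4.3.3 with edgeR 4.0.16, limma 3.58.1 and DESeq2 1.42.0.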

Additional observations from a re-analysis of the deposited data

How the results depend on the processing

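Under every alternative tried, 0 of the tested intervals of the 9 genes and 0 of the 9 sums were called. With the replicate block the lowest adjusted p over the intervals of the 9 genes was 0.0958, and 0.106 with loess offsets as well, a setting chosen after seeing the data. Same-numbered libraries deviated together at correlations of -0.0042, 0.0244 and 0.055, so the numbers were not taken as pairs. Calls among all 63098 intervals numbered 720, against 60 with DESeq2, 318 with limma voom, 327 at or above the median CPM, 207 at an adjusted p of 0.01, 753 with the replicate block and 301 to 588 without 1 library. The lowest of these left out N440K replicate 1 (301), wild type replicate 3 (435), N440K replicate 3 (397) or wild type replicate 1 (459). Those fits have fewer libraries and the stricter settings fewer calls by construction; the cause of the gap to DESeq2 and limma voom was not tested. Among the 559 intervals of the 46 other pathway genes 2 were called with loess offsets, 3 with the replicate block and loess offsets, and 0 to 2 without 1 library. Over all 63098 intervals the loess offsets gave 640 calls, and 654 with the replicate block as well. These few calls are no result particular to the pathway.

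Of 531 values of single intervals and sums under alternatives, 510 kept direction and side of the threshold, 19 turned direction, all at values that did not pass, and 2 gained a call. On the log2 scale, leaving out 1 library gave a range of -0.1456 to 0.0192 at the distal Lck interval, -0.1818 to 0.0363 at the strongest Cd6 interval, -0.0796 to 0.0029 at the strongest Ptprc interval, -0.1465 to 0.1096 at the Ptprc start site, -0.1793 to 0.1464 at the Fyn start site, -0.1445 to 0.0352 for the Lat sum, -0.0229 to 0.0732 for the Cd28 sum and -0.0296 to 0.1042 for the Ptprc sum. Loess offsets gave -0.0319 at the Zap70 start site (-0.0331 with the replicate block) and -0.0078 at the Fyn start site, which had -0.0112 at or above the median CPM. With no filter the strongest Ptprc interval had 0.0023. Precision was limited for single intervals, whose 95% intervals, which carry counting error and the spread between 3 libraries a genotype, reached past a 2-fold loss at 10 and past a 2-fold gain at 15 of 139.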

Other observations

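A further 54 intervals near the 9 genes are in the count table and were left out of the normalized one, 28% of the 193 there, against 32.7% of all 93708 intervals. Fyn accounted for 28 of these 54, so that 28 of its 56 intervals were tested, while all intervals of Lck and Cd5 were. The intervals left out had counts of 0 to 18 per library, with a median of 6.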
